A study of Rattus norvegicus with 9 samples.

Results

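Transcripts of 4 matrix metalloproteinases (Mmp2, Mmp3, Mmp9 and Mmp14) and of their inhibitor Timp1 were followed in rat brain tissue by RNA sequencing. These 5 genes were picked by name and Ensembl identifier, out of 32623 genes in the count table, by a rule that uses no measured value. They were, however, chosen with earlier results of these data known, so shares and medians over the 5 are not those of a blind choice. The 5 genes are ENSRNOG00000016695 (Mmp2), ENSRNOG00000032626 (Mmp3), ENSRNOG00000017539 (Mmp9), ENSRNOG00000010947 (Mmp14) and ENSRNOG00000010208 (Timp1). The table holds identifiers without symbols, so the pairing of name and identifier came from outside it and could not be checked against it. All rats had first been subjected to modelling, of a kind the labels leave unsaid, and were injected 4.5 h later. Their groups are labelled saline, rt-PA and Nano-patrol+NIR. Brain tissue was collected 3 days after the injection. rt-PA is recombinant tissue plasminogen activator, a clot-dissolving protease that turns plasminogen into plasmin. The title of the series counts Nano-patrol+NIR among treatments for thrombolysis, and the labels name no strain, age, sex, brain region or hemisphere. In the table and in the sample descriptions the rt-PA libraries are called uk, and it stayed unsettled which agent that means. There were 3 libraries per group. Neither animals without the modelling step nor animals given Nano-patrol or NIR alone were analysed here.

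Matrix metalloproteinases are zinc-dependent enzymes that cut collagens, laminins and other proteins of the extracellular matrix. They are made as inactive precursors, so a transcript level is not a measure of enzyme activity. Mmp3, stromelysin-1, cuts many matrix proteins and can activate the precursor of Mmp9. Mmp2 and Mmp9 are the gelatinases, which digest the type IV collagen of vascular basement membranes, and Mmp9 in particular has been studied for its part in leakage and bleeding after stroke. Mmp14 sits in the cell membrane and activates the precursor of Mmp2. Timp1 is a secreted protein that binds active metalloproteinases and blocks them, and it also forms a complex with the precursor of Mmp9.

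The libraries held 13059048 to 14992109 counts. In each group 1 library stood apart from the other 2 across the 15402 genes with enough counts to test. For rt-PA this was rt-PA 3, whose log2 CPM correlated at 0.913 and 0.896 with rt-PA 1 and rt-PA 2, which correlated at 0.984 with each other. Saline 1 (0.926 and 0.931, against 0.99 for the other pair) and Nano-patrol+NIR 3 (0.94 and 0.944, against 0.985) stood apart in the same way. These coefficients run across genes, which are not independent. CPM here means counts scaled to a common library total after TMM scaling, which adjusts totals for differences in composition. All 5 genes passed the filter on low counts. Mmp3 passed it through the rt-PA libraries, since it failed the filter when Nano-patrol+NIR and saline were taken alone. Whether the tissue expressed defining brain markers was not tested, because no identifier could be paired with a symbol.

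Proximal promoters are shown for Mmp3 and Timp1, the 2 of the 5 genes for which a promoter was matched by symbol. The sequences are from RefSeq on GRCr8 and cover the 250 bases before the annotated start, read 5′ to 3′ on the gene's strand. They lie at chr8:12925031-12925280 (plus strand) for Mmp3 and chrX:3771123-3771372 (minus strand) for Timp1. The RefSeq gene of Timp1 reaches further upstream than this window, which covers the start used in the promoter table and may not cover others. Mmp2, Mmp9 and Mmp14 were not matched to a promoter. Capitals mark matches on either strand to TGANTCA (the AP-1 element bound by Fos and Jun proteins), TGAGTAA (a variant of it, added to the search after the sequences were seen), AGGAAG (PEA3, an Ets factor element) and TATAAA (the TATA box).

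Mmp3 promoter: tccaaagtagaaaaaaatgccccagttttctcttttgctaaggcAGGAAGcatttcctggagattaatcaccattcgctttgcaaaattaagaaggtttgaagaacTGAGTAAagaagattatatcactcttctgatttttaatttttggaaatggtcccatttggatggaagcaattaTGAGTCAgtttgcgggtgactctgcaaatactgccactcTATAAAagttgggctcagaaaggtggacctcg
Timp1 promoter: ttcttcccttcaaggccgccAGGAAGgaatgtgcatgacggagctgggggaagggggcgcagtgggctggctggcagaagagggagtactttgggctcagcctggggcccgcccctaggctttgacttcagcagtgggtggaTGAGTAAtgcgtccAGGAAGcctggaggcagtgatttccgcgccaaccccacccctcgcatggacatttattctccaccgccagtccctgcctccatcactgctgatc

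In Mmp3 the AP-1 match began 71 bases before the start, the AP-1 variant 144 bases before it, PEA3 206 bases before it and the TATA box 32 bases before it. The Timp1 window held the AP-1 variant 108 bases before the start and PEA3 230 and 94 bases before it, with no match to the AP-1 element or the TATA box. PEA3 was thus found in both windows, and none of the marked matches overlapped another. The variant was in both as well, but it was added after these sequences were seen. Its presence in them was therefore fixed in advance and is not a result. Among 33469 rat promoter windows of this length, 6.34% held the AP-1 element, 2.38% its variant, 29.5% PEA3 and 12.9% the TATA box. GC content was 38.8% in the Mmp3 window and 61.2% in the Timp1 window. A match to these letters is a description of the sequence and does not show that a factor was bound.

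The first comparison was of rt-PA with saline. Mmp3, Mmp9 and Timp1 averaged higher after rt-PA, about 26-fold, 7.76-fold and 40.9-fold by the ratio of group means, whereas Mmp2 and Mmp14 were at 1.27 and 0.806 times their saline means. With 1 library left out at a time, the fitted log2 fold changes of Mmp3 ran from 4.06 (without saline 1) to 5.50 (without saline 2), those of Mmp9 from 2.49 (without rt-PA 2) to 3.66 (without saline 2) and those of Timp1 from 4.56 (without rt-PA 2) to 5.94 (without rt-PA 3). None of the 5 genes passed an adjusted p of 0.05 in edgeR's quasi-likelihood test, a count of 0, and 0.00649% of all tested genes did (1 of 15402). At an unadjusted p under 0.05 there were 3 of the 5, Mmp3, Mmp9 and Timp1, against 17% of all tested genes. The median log2 fold change of the 5 genes was 2.96, and that of all tested genes was -0.01. DESeq2 called 3 of the 5 (Mmp3, Mmp9 and Timp1, all higher), where it called 5.91% of the 16961 genes to which it gave an adjusted p. limma-voom called 0 (and 0% of all genes), and limma-voom with a weight per library called the same 3, where it called 45.1% of all genes.

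Mmp3 was nearly silent outside the rt-PA libraries. Its counts were 37, 22 and 19 in rt-PA 1 to 3, or 2.86, 1.68 and 1.32 CPM. In saline 1 to 3 there were 0, 2 and 1 counts, at or below 0.154 CPM. The lowest rt-PA library was 8.58 times the highest saline library, so the groups were clear of each other and rt-PA 3 was on the side of its group. The ratio of summed counts, 78 against 3, was 26.9 after scaling, and counting error alone allowed 8.86 to 133 (exact 95% interval). For saline 1 a count of 0 allows up to 0.204 CPM, taking 3 counts as the limit. With a fitted log2 fold change of 4.58 (SE 0.85, edgeR adjusted p = 0.0713), Mmp3 ranked 31st from the highest of 15402 genes. Its rt-PA counts also brought it past the filter on low counts, so its being ranked at all rested on the same counts. In bulk tissue, more cells that make a transcript and more transcript per cell cannot be told apart, here and for every gene that follows.

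Mmp9 gave counts of 557 and 656 in rt-PA 1 and rt-PA 2 and of 47 in rt-PA 3. These were 43.0, 49.96 and 3.27 CPM. The saline libraries had 0.611, 7.24 and 4.55 CPM. Mmp9 was thus high in rt-PA 1 and rt-PA 2, whereas rt-PA 3 lay inside the saline range, and saline 1, with 9 counts, lay far below saline 2 and saline 3. On average rt-PA had 32.1 ± 25.2 CPM, and saline had 4.13 ± 3.33 CPM (SD, n = 3 each), which gave a log2 fold change of 2.96 (SE 1.01, edgeR adjusted p = 0.2). The highest rt-PA library was 15.3 times the lowest, and 1.29% of all tested genes spread as widely within the rt-PA group on the log2 CPM scale. Spread within saline was similarly unusual, with the highest library 11.9 times the lowest and 1.27% of all tested genes spreading as widely.

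The inhibitor Timp1 had the widest spread of the 5 genes within the rt-PA group. rt-PA 1 held 2835 counts and rt-PA 2 held 4727, or 218.9 and 360.0 CPM. rt-PA 3 held 88 counts, or 6.12 CPM. Saline libraries were at 5.90, 4.01 and 4.41 CPM, so rt-PA 3 exceeded the highest of them by 1.04 times and the groups did not overlap by that small margin alone. That margin rested on TMM scaling. Relative to unscaled library totals, saline 1 (87 of 13258205 counts) was above rt-PA 3 (88 of 13749835), and the groups overlapped. The mean was 195 ± 178 CPM for rt-PA, against 4.77 ± 1.00 CPM for saline (SD, n = 3 each). A log2 fold change of 5.35 (SE 1.14, edgeR adjusted p = 0.0925) made Timp1 the 19th highest of 15402 genes in this comparison. Its log2 range within the rt-PA group, 5.84, was the 22nd widest, where the median gene had 0.66. Timp1 and Mmp9 therefore shared an order in the rt-PA group, rt-PA 2 highest and rt-PA 3 far lowest, while for Mmp3 rt-PA 1 was highest and the libraries were within 2.16 times of each other.

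Mmp2, the other gelatinase, and Mmp14, its activator, differed little between rt-PA and saline. Mmp2 was at 8.26, 5.33 and 13.6 CPM in rt-PA 1 to 3 and at 5.90, 7.24 and 8.17 CPM in saline 1 to 3. Its groups overlapped, with the highest value in rt-PA 3 (log2 fold change 0.35, SE 0.54, edgeR adjusted p = 0.774). Mmp14 was at 31.9, 15.99 and 28.5 CPM in rt-PA 1 to 3 and at 51.5, 21.3 and 22.0 CPM in saline 1 to 3. Here saline 1 was the highest library of all 9, and the groups again overlapped (log2 fold change -0.31, SE 0.56, edgeR adjusted p = 0.811). Without saline 1 the Mmp14 value was 0.27, so its sign rested on that library. Likewise Mmp2 was at -0.034 without rt-PA 3.

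**Figure D1:**
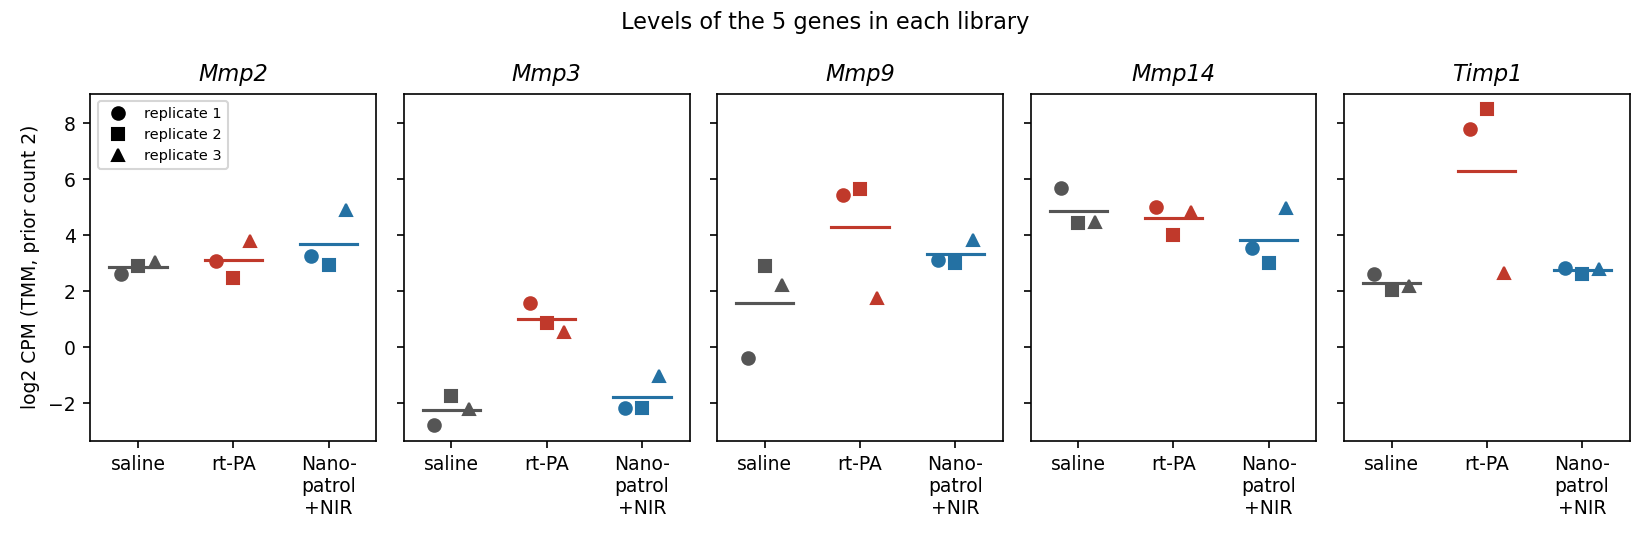
Level of each gene in each library, as log2 CPM (TMM scaling, prior count of 2) on the vertical axis, with treatment on the horizontal axis, symbol shape for replicate number and a bar at the group mean. rt-PA 1 and rt-PA 2 are far above all other libraries for Mmp9 and Timp1 while rt-PA 3 is not, all 3 rt-PA libraries are above the others for Mmp3, and Nano-patrol+NIR 3 is the highest library for Mmp2.

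Group ranges did not overlap for 2 of the 5 genes in the direction of higher rt-PA, Mmp3 and Timp1, beside 9.18% of all tested genes in that direction. Timp1 was clear only after TMM scaling, not by library totals alone. Mmp3 passed the filter on low counts through the rt-PA libraries, so being high there was a condition of its being counted. Calls changed when rt-PA 3 was left out. Without it, edgeR called 3 of the 5 against saline, among 13.5% of all tested genes. These were Timp1 (log2 fold change 5.94, edgeR adjusted p = 0.000181), Mmp3 (4.83, 0.0129) and Mmp9 (3.53, 0.0206). Leaving out any of the other 8 libraries left 0 of the 5 genes past the threshold. With the libraries standing apart in each group all removed (saline 1, rt-PA 3 and Nano-patrol+NIR 3, a choice made after seeing the data), edgeR called the same 3 genes, among 43.8% of all tested genes.

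**Figure D2:**
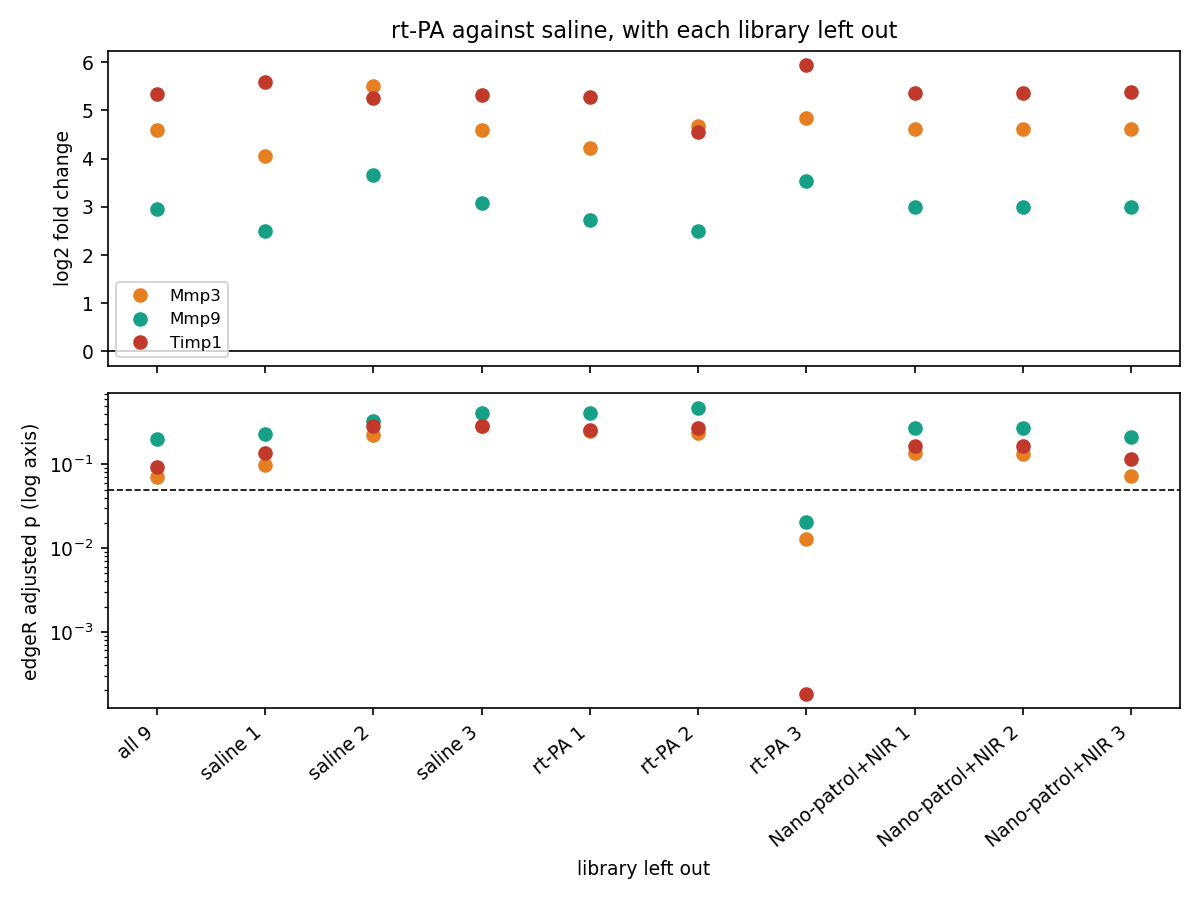
rt-PA against saline for Mmp3, Mmp9 and Timp1 with all 9 libraries and with each library left out in turn, as log2 fold change (upper panel) and edgeR adjusted p on a log axis (lower panel, dashed line at 0.05). The log2 fold changes stay above 0 in all fits shown, and the adjusted p of all 3 genes falls below the line only without rt-PA 3.

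Nano-patrol+NIR was then set against the same saline libraries. Timp1 and Mmp9 averaged 1.38 and 2.45 times their saline means after Nano-patrol+NIR, Mmp2 2.17 times and Mmp14 0.536 times, while Mmp3 was close to the detection limit in both groups. None of the 5 genes passed the test, a count of 0 (edgeR adjusted p of 0.906 or higher for each), where 0.00649% of all tested genes did. At an unadjusted p under 0.05 edgeR likewise had 0 of the 5, against 5.89% of all tested genes. DESeq2, which called 0.583% of the 20429 genes with an adjusted p, and both forms of limma-voom, which called 0% and 5.9%, also called 0 of the 5. Nor did edgeR call any without rt-PA 3 (0.223% of all tested genes) or without the library standing apart in each group (3.27%). The median log2 fold change of the 5 genes was 1.12, beside -0.01 for all tested genes.

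For Timp1 the 3 Nano-patrol+NIR libraries were at 7.01, 5.99 and 6.75 CPM. They were close together, and the lowest exceeded the highest saline library, 5.90 CPM, by 1.01 times (log2 fold change 0.46, SE 1.01). This SE comes from an estimate of spread that all 3 groups share, the rt-PA libraries included. Mmp9 was at 8.51, 7.81 and 14.1 CPM after Nano-patrol+NIR, each above the highest saline value of 7.24 CPM, by at least 1.08 times (log2 fold change 1.298, SE 0.97). Timp1 and Mmp9 were thus 2 of the 5 genes with higher values and no overlap, beside 7.62% of all tested genes in that direction. For Timp1 this too rested on TMM scaling. By library totals alone, saline 1 (87 of 13258205 counts) was above Nano-patrol+NIR 2 (79 of 13572995), and the groups overlapped. Mmp3 had 1, 1 and 5 counts in Nano-patrol+NIR 1 to 3, a sum of 7 against 3 in saline. Scaled by totals this was 2.38 times, with counting error alone allowing 0.544 to 14.3 (exact 95% interval), so a difference was not detectable at this depth.

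Mmp2 and Mmp14 varied within the Nano-patrol+NIR group through 1 library. Mmp2 was at 9.40, 7.58 and 29.3 CPM in Nano-patrol+NIR 1 to 3, and Nano-patrol+NIR 3 was 3.12 times the next library. Its mean was 15.4 ± 12.1 CPM, beside 7.11 ± 1.14 CPM for saline (SD, n = 3 each), which is 1.12 on the log2 scale (SE 0.54, edgeR adjusted p = 0.906). Without Nano-patrol+NIR 3 that value was 0.26. Mmp14 was at 11.5, 7.89 and 31.4 CPM, where Nano-patrol+NIR 3 lay inside the saline range and the other 2 below it. Its log2 fold change from saline was -0.90 (SE 0.56, edgeR adjusted p = 0.998), -1.71 without Nano-patrol+NIR 3 and -0.33 without saline 1. On the log2 CPM scale, 4.2% of all tested genes spread as widely as Mmp2 within this group and 3.99% as widely as Mmp14.

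The direct comparison of the 2 thrombolysis treatments asked where Nano-patrol+NIR differed from rt-PA. Timp1 averaged 6.59 ± 0.531 CPM after Nano-patrol+NIR and 195 ± 178 CPM after rt-PA (SD, n = 3 each). Mmp3 averaged 0.166 ± 0.158 CPM against 1.95 ± 0.804 CPM, and Mmp9 10.1 ± 3.43 CPM against 32.1 ± 25.2 CPM (SD, n = 3 each). edgeR called 0 of the 5 genes and 0% of all tested genes, and 2 of the 5 (Mmp3 and Timp1) had an unadjusted p under 0.05 against 13.8% of all tested genes. DESeq2 called 2 of the 5 (Mmp3 and Timp1, both lower), where it called 3.73% of the 16094 genes with an adjusted p. limma-voom called 0 (and 0.00649% of all genes), and with library weights it called 4 of the 5 as lower, where it called 39.1% of all genes. The median log2 fold change was -1.66 over the 5 genes and 0.02 over all tested genes.

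Mmp3 was lower in each Nano-patrol+NIR library than in any rt-PA library, the 1 gene of the 5 without overlap, beside 8.54% of all tested genes in that direction. Here too it was tested only because its rt-PA counts passed the filter, so that share is no independent yardstick for it. The lowest rt-PA library was 3.80 times the highest Nano-patrol+NIR library, a log2 difference of -3.46 by the fit (SE 0.76, edgeR adjusted p = 0.18). Summed counts of 7 against 78 came to 0.0887 times after scaling, and counting error alone allowed 0.0345 to 0.191 (exact 95% interval). Timp1 had a log2 fold change of -4.89 (SE 1.12, edgeR adjusted p = 0.18), the 12th lowest of 15402 genes, but rt-PA 3, at 6.12 CPM, lay among the Nano-patrol+NIR libraries. Mmp9 in rt-PA 3, 3.27 CPM, lay below all 3 Nano-patrol+NIR libraries (log2 fold change -1.66, SE 0.95, edgeR adjusted p = 0.481). Without rt-PA 3, edgeR called Timp1 (log2 fold change -5.49, adjusted p = 0.000281) and Mmp3 (-3.70, 0.023) but not Mmp9 (-2.23, 0.075), where 13.1% of all tested genes were called. Without the library standing apart in each group it called Mmp3, Mmp9, Mmp14 and Timp1 as lower after Nano-patrol+NIR, 4 of the 5, where 40.5% of all tested genes were called.

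Mmp2 and Mmp14 overlapped between both treatments. The log2 fold change of Mmp2 was 0.77 (SE 0.53, edgeR adjusted p = 0.564), and -0.12 without Nano-patrol+NIR 3. That of Mmp14 was -0.59 (SE 0.56, edgeR adjusted p = 0.681), and -1.42 without Nano-patrol+NIR 3 (edgeR adjusted p = 0.35).

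**Figure D3:**
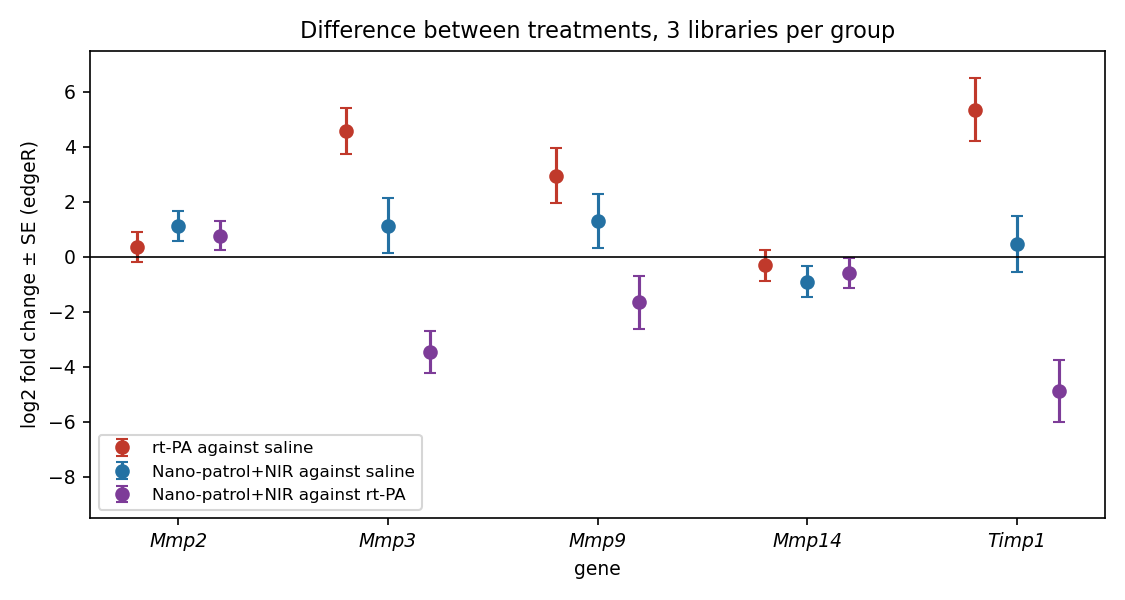
Fitted log2 fold change of each gene (vertical axis, bars of 1 SE from edgeR, 3 libraries per group) in the 3 comparisons. Timp1, Mmp3 and Mmp9 lie at 5.35, 4.58 and 2.96 for rt-PA against saline and at 0.46, 1.13 and 1.298 for Nano-patrol+NIR against saline, with none past an adjusted p of 0.05; both comparisons share the saline libraries.

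By group mean, Timp1, Mmp3 and Mmp9 each ran from saline (lowest) through Nano-patrol+NIR to rt-PA. For Mmp3 the step from saline to Nano-patrol+NIR was within the spread of libraries and the step to rt-PA was not. For Timp1 and Mmp9 the step from saline to Nano-patrol+NIR was clear by 1.01 and 1.08 times, for Timp1 only after TMM scaling. At the step to rt-PA the libraries of both genes overlapped through rt-PA 3. Mmp2 ran from saline through rt-PA to Nano-patrol+NIR, and Mmp14 in the opposite order, and no neighbours in either order differed beyond their spread.

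The balance between inhibitor and enzymes was described as the log2 ratio of Timp1 counts to those of each metalloproteinase in the same library, which library scaling does not affect. Ratios of different genes depend on transcript length, so only differences between libraries are read. Timp1 over Mmp9 was 2.35, 2.85 and 0.90 in rt-PA 1 to 3, 3.20, -0.85 and -0.05 in saline 1 to 3 and -0.28, -0.38 and -1.05 in Nano-patrol+NIR 1 to 3. The rt-PA libraries, rt-PA 3 included, were all above the Nano-patrol+NIR libraries, whereas saline spanned both, with saline 1 highest of the 9. The saline 1 ratio rests on 9 counts of Mmp9. Over Mmp14, the ratio was 2.78 and 4.49 in rt-PA 1 and rt-PA 2 and -2.21 in rt-PA 3, against -3.12 to -2.31 in saline and -2.21 to -0.39 in Nano-patrol+NIR. Both treatments thus lay above saline for this pair, rt-PA 3 and Nano-patrol+NIR 3 by the smallest margin. Over Mmp2 it was 4.72 and 6.07 in rt-PA 1 and rt-PA 2, and all other libraries were between -2.11 and 0. Over Mmp3, where saline and Nano-patrol+NIR counts are too few for a precise ratio, the group means were 5.74 ± 1.56 in saline, 5.38 ± 2.87 in rt-PA and 5.28 ± 0.992 in Nano-patrol+NIR (SD, n = 3 each). No test was made on these ratios.

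**Figure D4:**
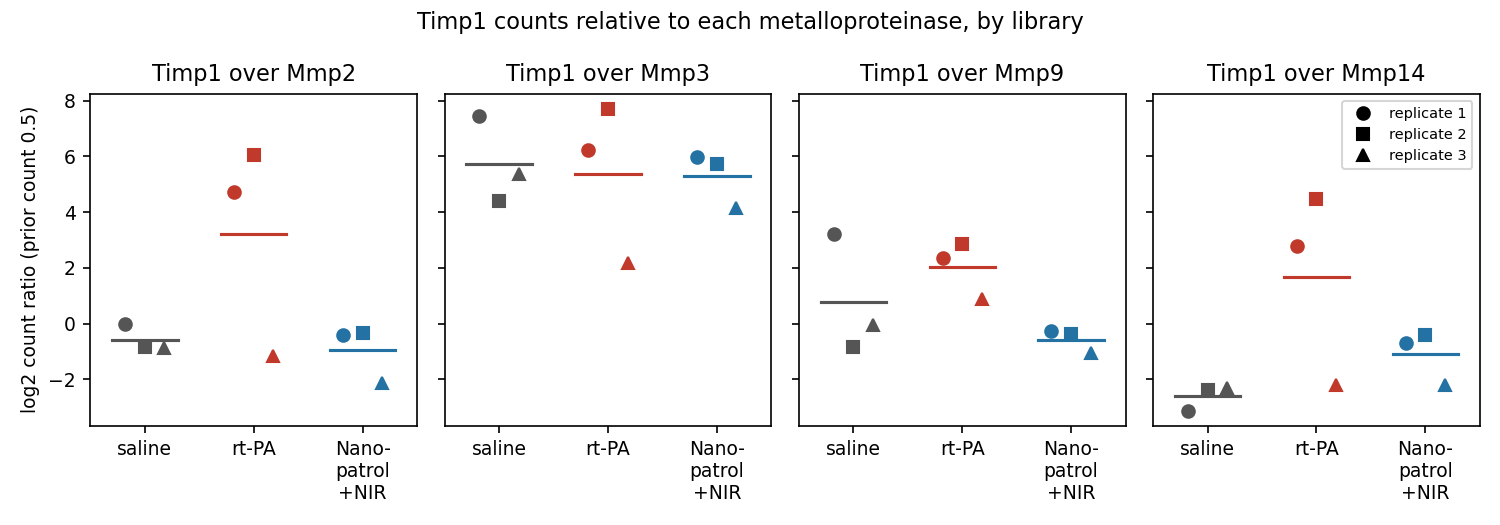
Log2 ratio of Timp1 counts to counts of each metalloproteinase (vertical axis, prior count of 0.5) by treatment, with symbol shape for replicate number and a bar at the group mean. The ratios to Mmp2 (4.72 and 6.07) and Mmp14 (2.78 and 4.49) in rt-PA 1 and rt-PA 2 stand against saline values of at most 0 and -2.31, while rt-PA 3 was at -1.14, below all saline libraries, and at -2.21, just above them.

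Other genes followed the same pattern over libraries as Timp1 in far larger number than for the other members. Of 11857 genes averaging 5 CPM or more, 579 had a Pearson r of at least 0.9 with Timp1 over the log2 CPM of the 9 libraries. The corresponding numbers were 89 for Mmp9, 77 for Mmp3, 46 for Mmp2 and 4 for Mmp14. Most like Timp1 was ENSRNOG00000008412 (r = 0.994), at 22.0, 43.3 and 1.11 CPM in rt-PA 1 to 3 and between 0.679 and 1.42 CPM in the other 6 libraries. It reached the mean of 5 CPM only through rt-PA 1 and rt-PA 2, so for Timp1 that minimum lets in genes by the same pattern they are matched on, and the number of such genes is to be read with that in mind. Most like Mmp14 was ENSRNOG00000049714 (r = 0.957), at 9.91 CPM in saline 1 and between 3.49 and 8.72 CPM elsewhere. The best r was 0.993 for Mmp3, 0.991 for Mmp9 and 0.977 for Mmp2. These coefficients describe likeness over 9 libraries that share treatments and the 3 libraries standing apart, and were picked as the highest of many.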

How the data were processed

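Poly(A) RNA from brain tissue was sequenced, per the labels' protocols. StringTie 1.3.1, HISAT2, Bowtie2 2.2.8 and fastp 0.18.0 are listed, without roles, per the submitters' processing notes, and no label names a counting step, strand setting or genome build. The values are whole-number read counts per gene and library, as the authors deposited them, with no normalization. Groups and replicate numbers came from sample titles; nothing says that libraries were separate animals, so p-values measure only how far these samples differ, perhaps for technical reasons. With 13059048 to 14992109 counts per library, counting error limited Mmp3 the most of the 5 genes, and also Mmp9 in saline 1, at 9 counts. PCR duplicates make counting intervals and limits too narrow.

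Counts were fitted in R 4.3.3 with edgeR 4.0.16 (filterByExpr, TMM, robust quasi-likelihood F test, all 9 libraries, 6 residual degrees of freedom). A call was a Benjamini-Hochberg adjusted p under 0.05 over 15402 genes. SE was obtained from the log2 fold change and its F statistic (ratio of the former to the root of the latter). Log2 CPM used a prior count of 2. The script was tested on simulated data. Alternatives were DESeq2 1.42.0, limma 3.58.1 (voom, with and without library weights), other scalings and filters, single comparisons, a replicate block, a stricter threshold and libraries left out. The named genes were the 5 members, and the most alike gene of the 2 members with the highest mean CPM. The members and lists were chosen with earlier results of these data known. Lists of other protease genes and of cell type markers were not used, since 0 genes of the reference table carry an Ensembl identifier. An exact permutation test of 3 libraries against 3 cannot go below 0.1 and was not run.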

Additional observations from a re-analysis of the deposited data

How the results depend on the processing

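For each comparison the number of the 5 genes called by edgeR was 0. Against saline, rt-PA had 3 called with DESeq2 (beside 5.91% of genes with an adjusted p), 3 with library weights in limma-voom (45.1% of all tested genes) and 3 without the library farthest from its group in each treatment (saline 1, rt-PA 3 and Nano-patrol+NIR 3, chosen after seeing the data; 43.8%), and 0 to 3 with each library left out. Nano-patrol+NIR against rt-PA had 2 with DESeq2 (3.73%), 4 with library weights (39.1%), 4 without those 3 libraries (40.5%) and 0 to 2 with each library left out. Among the fits with 1 library left out, the highest number in both comparisons came without rt-PA 3, where 13.5% and 13.1% of all tested genes were called. Nano-patrol+NIR against saline had 0 in all alternatives run. Other scalings, other filters, a stricter threshold, limma-voom without weights and the fits of 6 libraries left the numbers at 0; Mmp3 could not be fitted in the 6 libraries of Nano-patrol+NIR and saline because it failed the filter.

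Signs turned for 4 log2 fold changes, none past the threshold. Mmp2 in rt-PA against saline was -0.031 with library weights, -0.13 without the 3 libraries and -0.034 to 0.62 with each library left out. Mmp14 there was 0.28, 0.20 and -0.52 to 0.27. Mmp3 in Nano-patrol+NIR against saline was -0.055 with library weights and -0.50 without the 3 libraries. Mmp2 in Nano-patrol+NIR against rt-PA was -0.12 to 1.16 with each library left out. Mmp3, Mmp9 and Timp1 were higher in rt-PA than in saline in all 19 alternatives and past the threshold in 4 of them each, with adjusted p of 0.000177 to 0.287, 9.71e-06 to 0.476 and 2.81e-07 to 0.326. For all of these the cause was not tested. Differences between groups in the log2 ratio of Timp1 to each enzyme moved by less than the pooled SD of the groups compared, which is large where rt-PA 3 or saline 1 enters. Some turned sign even so. Over Mmp3, rt-PA against saline was -0.36, 0.75 with a prior count of 2 and -1.53 to 1.24 with each library left out. Nano-patrol+NIR against saline was -0.46 over Mmp3 (-1.13 to 0.40) and -0.38 over Mmp2 (-0.69 to 0.20), and Nano-patrol+NIR against rt-PA was -0.095 over Mmp3 (-1.69 to 1.07).

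With the replicate number as a block, edgeR called 0 of the 5 genes in each comparison, and Timp1 in rt-PA against saline was at 4.91 (adjusted p = 0.2). Deviations of same-numbered libraries correlated at -0.362 to 0.278, over 0.1 in 5 of 9 pairs, and 2 of 9 libraries matched their own number best. Among the libraries standing apart, saline 1 and Nano-patrol+NIR 3 correlated at 0.377, and saline 1 and rt-PA 3 at 0.21. The value for rt-PA 3 and Nano-patrol+NIR 3 was 0.278. These libraries thus deviated in part alike, and the cause was not tested. No label ties libraries of the same number to each other, and a shared batch or day was not tested. Depth limits Mmp3, at 0 to 5 counts in the saline and Nano-patrol+NIR libraries.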
